A study of Mus musculus with 7 samples.

Results

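The data describe 10 genes that build and specify photoreceptors: the transcription factors Crx, Nrl and Nr2e3, and the outer segment, ciliary and retinoid genes Prph2, Rom1, Rp1, Rpgrip1, Slc24a1, Abca4 and Rdh12. The genes were chosen by symbol as a set of photoreceptor regulators and structural proteins, and all 10 were among the 12756 genes of the deposited table. RNA came from retinas of adult C57BL/6 mice of genotype Cdh5-CreERT2 Rpl22 tm1.1Psam, in which an inducible Cre expressed from the endothelial Cdh5 promoter tags the ribosomal protein Rpl22 with HA. Mice of this genotype were given anti-Dll4, an antibody against a Notch ligand of endothelial cells (4 libraries), or control IgG (3 libraries). Tagged ribosomes were isolated on anti-HA beads, and the polyadenylated RNA bound to them was read at its 3′ ends. The labels give neither the antibody dose nor the time of collection. Nothing says that libraries are separate animals, so a p-value here measures the spread between libraries, which may be technical.

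Photoreceptors carry stacks of membrane discs in an outer segment that is joined to the cell body by a connecting cilium. Crx, a homeodomain factor, activates most photoreceptor genes, Nrl directs precursors to the rod fate, and Nr2e3, a nuclear receptor that acts downstream of Nrl, represses cone genes in rods. Prph2 and Rom1 are tetraspanins that shape disc rims, Rp1 is a microtubule protein of the axoneme, Rpgrip1 is a scaffold of the connecting cilium, Slc24a1 exchanges sodium for calcium and potassium in the rod outer segment membrane, and Abca4 and Rdh12 handle retinaldehyde released by bleached pigment. These genes are best known from photoreceptors, while the labelled cell type was retinal endothelium.

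The pulled-down RNA held transcripts of many retinal cells. The 20 general endothelial markers were all listed and made up 0.427% to 0.552% of the summed CPM (counts per 1000000 reads of the listed genes) in anti-Dll4 libraries and 0.193% to 0.291% in control IgG libraries. The 20 rod phototransduction genes, none of which is among the 10, made up 1.11% to 1.75% in anti-Dll4 and 2.02% to 2.18% in control IgG libraries. RNA from before the pull-down was not analysed here, so the cells that gave the photoreceptor RNA were not identified. Depth was 1356192 to 1771086 reads per library, and 3 reads correspond to 1.69 to 2.21 CPM. A library is named by its group and the number in its column; the number of the column control IgG 1 matches no control title.

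Promoter windows were available for 9 of the 10 genes, from 250 bases before to 50 bases after the RefSeq start (assembly GRCm38.p6). Of these, 4 are shown because they belong to the genes with the smallest p among those with negative changes (Nr2e3 and Rom1) and to a regulator and a ciliary gene that hold the homeodomain motif of Crx (Crx itself and Rpgrip1). Capitals mark TAATCC, the Crx-type motif, or TGCTGA, a half-site of the Nrl type, on either strand (GGATTA and TCAGCA when read in reverse), and the windows lie at chr9:59950030-59950329 (minus strand), chr19:8929307-8929606 (minus), chr7:15879906-15880205 (minus) and chr14:52110653-52110952 (plus), in the order below.
Nr2e3: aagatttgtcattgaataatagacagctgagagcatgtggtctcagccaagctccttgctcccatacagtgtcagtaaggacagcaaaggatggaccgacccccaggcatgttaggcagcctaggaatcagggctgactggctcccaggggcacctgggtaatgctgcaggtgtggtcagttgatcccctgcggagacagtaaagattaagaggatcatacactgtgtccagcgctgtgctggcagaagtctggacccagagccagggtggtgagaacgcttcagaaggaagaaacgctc
Rom1: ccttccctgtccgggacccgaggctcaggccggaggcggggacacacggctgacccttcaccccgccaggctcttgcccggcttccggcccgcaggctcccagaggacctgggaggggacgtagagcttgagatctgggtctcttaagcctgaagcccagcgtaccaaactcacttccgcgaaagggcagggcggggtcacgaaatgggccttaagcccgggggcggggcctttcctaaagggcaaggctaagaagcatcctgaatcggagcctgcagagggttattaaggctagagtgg
Crx: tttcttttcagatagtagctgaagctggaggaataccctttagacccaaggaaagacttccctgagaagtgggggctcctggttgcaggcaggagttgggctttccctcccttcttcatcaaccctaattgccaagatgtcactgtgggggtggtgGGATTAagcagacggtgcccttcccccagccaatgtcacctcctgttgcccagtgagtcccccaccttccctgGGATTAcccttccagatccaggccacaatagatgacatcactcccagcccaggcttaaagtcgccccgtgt
Rpgrip1: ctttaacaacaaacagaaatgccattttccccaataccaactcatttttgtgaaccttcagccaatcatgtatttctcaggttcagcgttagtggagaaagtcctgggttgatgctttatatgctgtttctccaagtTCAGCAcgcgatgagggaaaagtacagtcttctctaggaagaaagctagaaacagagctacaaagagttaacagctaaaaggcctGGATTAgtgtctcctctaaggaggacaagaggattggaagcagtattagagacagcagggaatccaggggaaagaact
The letters TAATCC were found in 3 of the 9 windows (Crx, Rpgrip1 and Abca4), and in 7.06% of 32851 mouse promoter windows of the same length. Counted from the start, their first base lay at -94 and -21 in the Crx window, at -28 in the Rpgrip1 window and at -58 in the Abca4 window, each on the reverse strand. TGCTGA was found in the windows of Rpgrip1 and Rdh12 (2 of 9, against 19.5% of all windows), and AAGTCA, a half-site of the Nr2e3 type, in 0 of 9, against 15.1% of all windows. No motif overlapped another in these windows. Matches are a description of the letters and were not tested as binding sites.

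Together the 10 genes made up 1.82%, 1.46%, 0.938% and 1.27% of the CPM in anti-Dll4 libraries 1 to 4, against 2.13%, 1.93% and 2.07% in control IgG libraries 1, 3 and 4. Every anti-Dll4 library was below every control IgG library in this sum, and anti-Dll4 3 was the lowest. In log2(CPM + 1), on which the test was run, 9 of 10 genes had a negative change, against 54.5% of the 10899 genes tested. The median change of the 10 was -0.57, against -0.14 over all genes tested. With libraries scaled on rod phototransduction genes, 5 of 10 were negative, and the median of all genes was 0.31. With scaling on endothelial markers, 10 of 10 were negative, and the median of all genes was -1.09. The share of all genes with negative changes was not computed under these scalings. The median SD per gene over all genes, on the log2 scale, was 1.56 in anti-Dll4 and 1.05 in control IgG libraries. All 10 passed the filter of at least 1 CPM in at least 3 libraries. None of the 10 passed the threshold of a Benjamini-Hochberg adjusted p under 0.05 in limma, a linear-model test fitted across all genes: 0 were called lower, against 0.0% of all genes tested, and 0 higher, against 0.119%. At an unadjusted p under 0.05 there were 4 lower, against 3.41% of all genes, and 1 higher, against 3.68%. In a fit of whole reads with limma's voom, 2 were called lower, against 0.229% of all genes, and 0 higher, against 0.147%.

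**Figure D1:**
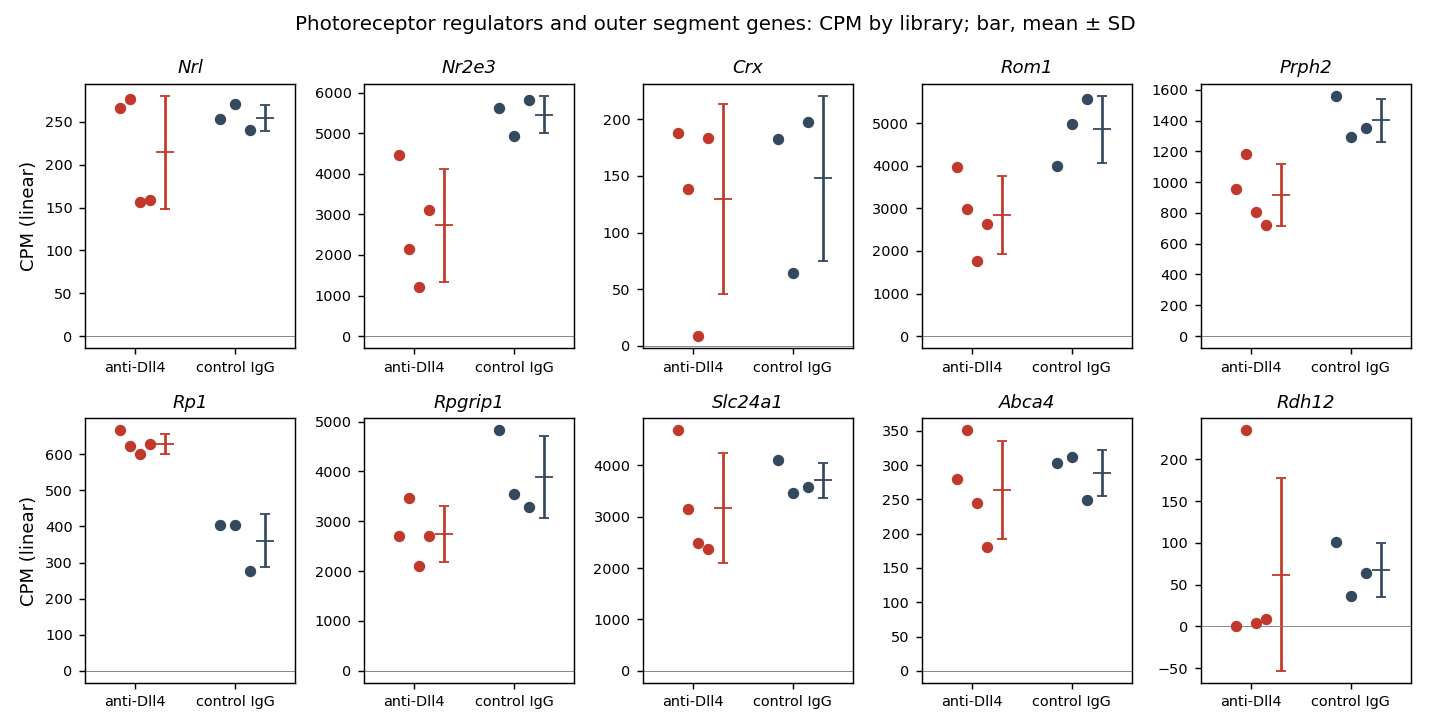
CPM of each of the 10 genes in the 4 anti-Dll4 libraries (red) and the 3 control IgG libraries (dark grey), on linear axes with a scale per gene; the bar beside the points is the mean ± SD. The groups do not overlap for Nr2e3, Rom1, Prph2 (anti-Dll4 lower) and Rp1 (anti-Dll4 higher), and Rdh12 has an SD larger than its mean in anti-Dll4 libraries.

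Beside these genes, in the same libraries, 17 of the 20 endothelial markers had positive changes (median 1.71), and their summed level averaged 0.481% ± 0.0517 of the CPM in anti-Dll4 and 0.227% ± 0.0555 in control IgG libraries (SD, n = 4 and 3). CPM are shares of a fixed total, and the part of this shift in the lower photoreceptor share was not tested. In RNA pulled down from tissue, fewer cells of a type, less RNA per cell and less recovery in the pull-down cannot be told apart. Rod phototransduction genes were at 1.47% ± 0.305 in anti-Dll4 and 2.10% ± 0.0780 in control IgG libraries, so the sum of the 10 genes per 100 CPM of rod phototransduction genes was 92.7 ± 9.28 CPM in anti-Dll4 and 97.4 ± 3.97 CPM in control IgG libraries, with overlapping groups (84.2 to 104 and 94.8 to 102).

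**Figure D2:**
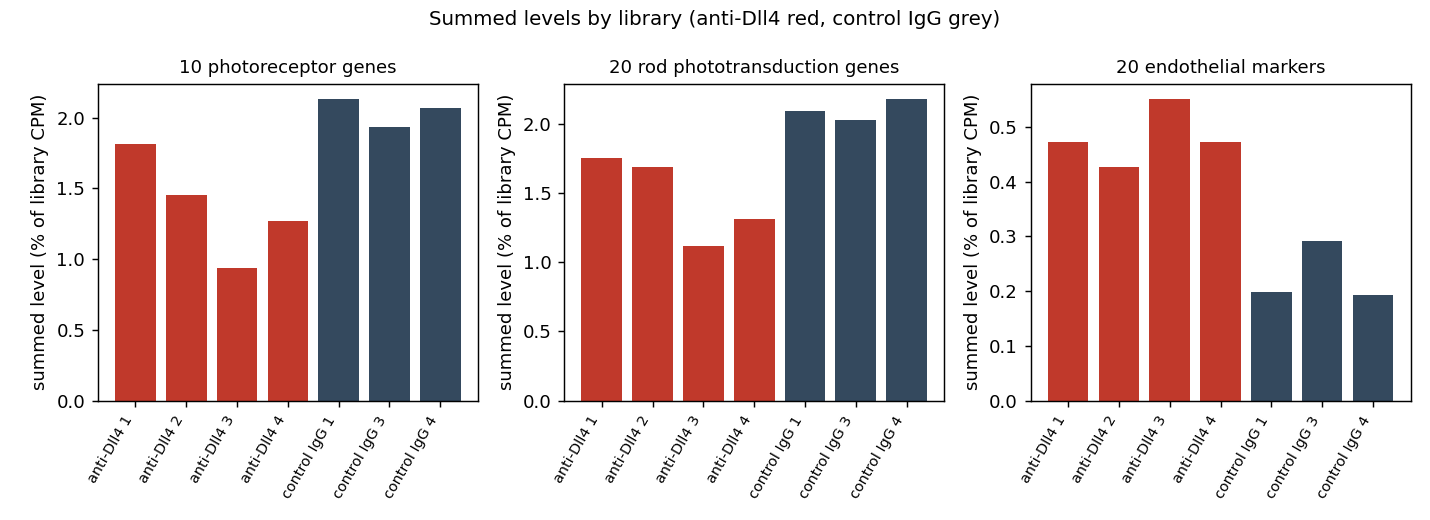
Summed level of the 10 photoreceptor genes, of 20 rod phototransduction genes and of 20 endothelial markers, as a percent of all CPM in each library (bars from 0; anti-Dll4 red, control IgG dark grey). Both photoreceptor sums are lower, and the endothelial sum is higher, in each anti-Dll4 library than in each control IgG library; anti-Dll4 3 has the lowest photoreceptor sums and the highest endothelial sum.

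Among the regulators, Nr2e3 was measured at 4454, 2157, 1203 and 3100 CPM in anti-Dll4 libraries 1 to 4, against 5617, 4940 and 5830 CPM in control IgG libraries 1, 3 and 4. The anti-Dll4 libraries all lay below the control IgG libraries and spanned 3.70-fold, while the control libraries spanned 1.18-fold. Its log2 change of -1.15 ± 0.29 (SE) did not pass (limma adjusted p = 0.178), although it ranked 43 of 10899 genes by p, and the voom fit called it lower (-1.17 ± 0.19, adjusted p = 0.0130, range over 18 alternatives 0.00566 to 0.828). The Nr2e3 window shown above held none of the 3 motifs. With a library left out in turn the limma change ran from -1.44 to -0.81. Groups that do not overlap, with anti-Dll4 lower, were seen for 3 of the 10 genes (Nr2e3, Rom1 and Prph2), against 3.75% of all genes tested, and with anti-Dll4 higher for 1 of the 10 (Rp1), against 3.84%.

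Nrl, which lies upstream of Nr2e3 in rods, had 267, 277, 157 and 159 CPM in anti-Dll4 libraries 1 to 4 and 253, 271 and 240 CPM in control IgG libraries 1, 3 and 4. Anti-Dll4 1 and 2 lay within or above the control range and anti-Dll4 3 and 4 below it. The log2 change was -0.30 ± 0.46 (limma adjusted p = 0.916), and it ran from -0.44 without anti-Dll4 2 to -0.16 without anti-Dll4 3 (-0.17 without anti-Dll4 4).

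Crx had 188, 139, 8.50 and 183 CPM in anti-Dll4 libraries 1 to 4, against 182, 64.2 and 197 CPM in control IgG libraries 1, 3 and 4. The groups overlapped, and anti-Dll4 3 stood far below the rest at 15 reads, for which counting alone gives a 95% Poisson interval of 4.76 to 14.0 CPM. The log2 change was -0.69 ± 0.88 (limma adjusted p = 0.901), and without anti-Dll4 3 it turned to 0.35, while without control IgG 3 it was -1.21. The direction for Crx rests on that library. Its own promoter window, shown above, held 2 of the Crx-type motifs.

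Of the disc rim proteins, Rom1 had 3979, 2977, 1764 and 2623 CPM in anti-Dll4 libraries 1 to 4, against 3999, 4990 and 5571 CPM in control IgG libraries 1, 3 and 4. The groups did not overlap, but anti-Dll4 1 and control IgG 1 were nearly equal. The log2 change of -0.82 ± 0.23 did not pass in limma (adjusted p = 0.303, rank 68 by p) and passed in voom (-0.78 ± 0.16, adjusted p = 0.0335, range over 18 alternatives 0.00566 to 0.866).

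Prph2, the partner of Rom1 in the rim complex, had 954, 1180, 806 and 719 CPM in anti-Dll4 libraries and 1561, 1291 and 1350 CPM in control IgG libraries. Each anti-Dll4 library was below each control library. The log2 change was -0.64 ± 0.27 (limma adjusted p = 0.688, voom adjusted p = 0.259, range over 18 alternatives 0.0128 to 0.967).

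Rp1, the axonemal microtubule protein, was the exception in direction. It had 666, 623, 601 and 627 CPM in anti-Dll4 libraries 1 to 4, against 404, 403 and 276 CPM in control IgG libraries 1, 3 and 4. The anti-Dll4 libraries lay within 1.11-fold of each other and all above the control libraries. The log2 change was 0.82 ± 0.34 (limma adjusted p = 0.673, voom adjusted p = 0.466, range over 18 alternatives 0.110 to 0.891), and it ran from 0.64 to 0.91 with a library left out in turn. Per 1000 CPM of rod phototransduction genes, Rp1 had 38.1, 36.8, 54.0 and 47.9 CPM in anti-Dll4 libraries, against 19.3, 19.9 and 12.6 CPM in control IgG libraries. It was the only one of the 10 whose groups did not overlap on this scale, where 7.38% of all genes tested were higher without overlap and 1.69% lower; its log2 change there was 1.36 ± 0.37 (limma adjusted p = 0.110). Scaled on endothelial markers, which moved the median gene by -0.95, the change of Rp1 was -0.28 ± 0.39. Relative to the median gene Rp1 was at 0.96 on CPM, 1.05 with rod scaling and 0.81 with endothelial scaling.

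**Figure D3:**
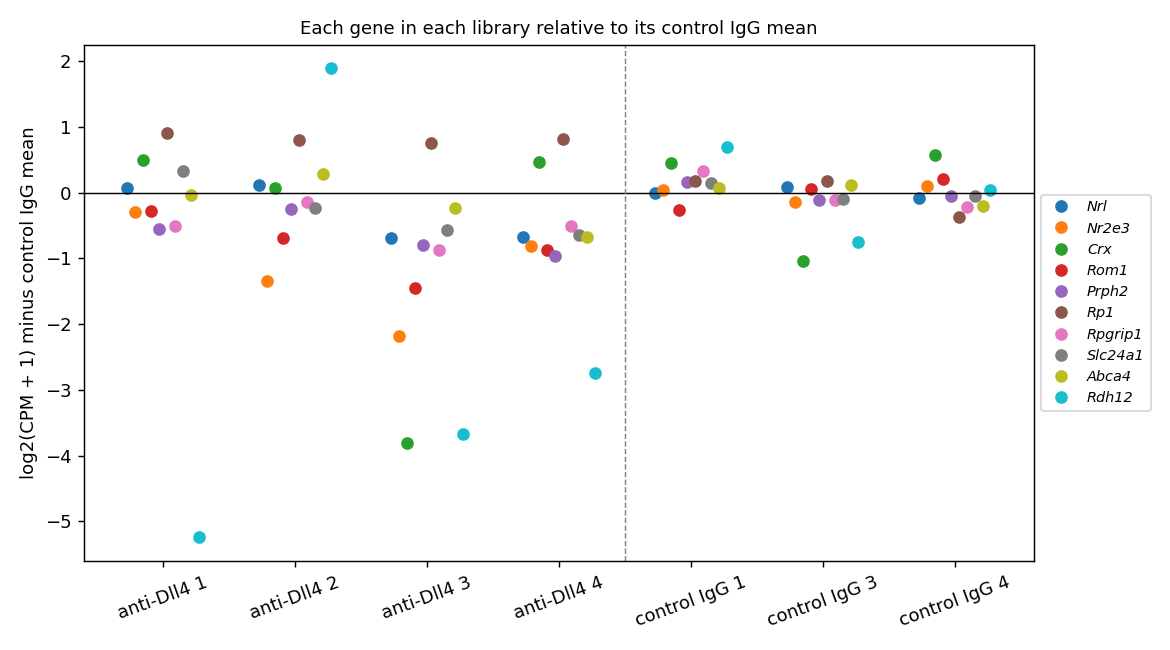
Each gene in each library as log2(CPM + 1) minus its mean over the 3 control IgG libraries; points are spread sideways by gene, and the dashed line parts the 4 anti-Dll4 from the 3 control IgG libraries. Rp1 lies above 0 in all 4 anti-Dll4 libraries, Nr2e3, Rom1, Prph2 and Rpgrip1 lie below 0 in all 4, and Crx in anti-Dll4 3 and Rdh12 in anti-Dll4 1, 3 and 4 lie lowest.

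Rpgrip1, which anchors RPGR at the connecting cilium, had 2708, 3468, 2103 and 2714 CPM in anti-Dll4 libraries and 4823, 3555 and 3290 CPM in control IgG libraries. Anti-Dll4 2 was above control IgG 4, and the remaining anti-Dll4 libraries were below the control range. The log2 change was -0.50 ± 0.21 (limma adjusted p = 0.688, voom adjusted p = 0.0708, range over 18 alternatives 0.00959 to 0.986). Rpgrip1 overlaps Supt16, a subunit of the FACT histone chaperone, on the opposite strand (GENCODE M21), and the reads listed for Supt16 equalled 87.9% to 100% of those listed for Rpgrip1 in anti-Dll4 libraries and 92.4% to 97.3% in control IgG libraries. In anti-Dll4 3 both genes were listed with 3712 reads. Whether the counting used strand is not stated in the sources used here, so the reads of Rpgrip1 and Supt16 cannot be told apart. Srpk2 and Kmt2e, another overlapping pair on opposite strands, had equal reads in 6 of 7 libraries. The changes and calls given for Rpgrip1 carry this limit, and its reads in excess of those of Supt16 were not tested. Without Rpgrip1, 8 of 9 genes had negative changes, with a median of -0.64.

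Slc24a1, the rod exchanger, had 4678, 3148, 2489 and 2365 CPM in anti-Dll4 libraries and 4095, 3452 and 3584 CPM in control IgG libraries. Anti-Dll4 1 was the highest of all libraries and the other anti-Dll4 libraries were below the control range. The log2 change was -0.28 ± 0.22 (limma adjusted p = 0.820), and it ran from -0.48 without anti-Dll4 1 to -0.16 without anti-Dll4 4 (-0.18 without anti-Dll4 3).

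Of the retinoid genes, Abca4, which flips retinaldehyde conjugates across the disc membrane, had 280, 350, 244 and 180 CPM in anti-Dll4 libraries and 303, 312 and 250 CPM in control IgG libraries. The groups overlapped and the log2 change was -0.16 ± 0.43 (limma adjusted p = 0.958). Without anti-Dll4 4 the change was 0.01, and without anti-Dll4 2 it was -0.31.

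Rdh12, a retinol dehydrogenase of photoreceptor inner segments, had 0.670, 235, 3.97 and 8.47 CPM in anti-Dll4 libraries 1 to 4, against 102, 36.9 and 64.5 CPM in control IgG libraries 1, 3 and 4. Anti-Dll4 1, 3 and 4 were below the control range and anti-Dll4 2 was above it. These levels came from 1, 384, 7 and 15 reads in anti-Dll4 and 172, 50 and 99 reads in control IgG libraries; the single read gives a 95% Poisson interval of 0.0170 to 3.73 CPM. The mean was 62.0 ± 115 CPM in anti-Dll4 and 67.6 ± 32.4 CPM in control IgG libraries (SD, n = 4 and 3). The log2 change of -2.44 ± 1.52 (limma adjusted p = 0.761) was the most negative of the 10 and had the largest error; with a library left out it ran from -3.89 (without anti-Dll4 2) to -1.51 (without anti-Dll4 1).

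The scaling set how far the genes stood from control. With libraries scaled on the rod phototransduction genes, the median change of the 10 was -0.03 and that of all genes was 0.31, a shift of 0.45; 0 of the 10 were called lower, against 0.0% of all genes, and 0 higher, against 0.495%. Relative to the median gene under this scaling, Nr2e3 was at -0.93 and Rom1 at -0.59, and Rp1 was at 1.05. With libraries scaled on the endothelial markers, the median of the 10 was -1.67 and that of all genes -1.09, a shift of -0.95, and 5 were called lower (Nr2e3, Rom1, Prph2, Rpgrip1 and Slc24a1; limma adjusted p = 0.00566, 0.00566, 0.0128, 0.00959 and 0.0191), against 1.5% of all genes, and 0 higher, against 0.0184%. Relative to the median gene these 5 were at -1.17, -0.84, -0.65, -0.52 and -0.29 there. Under CPM their values relative to the median gene were -1.02, -0.68, -0.50, -0.37 and -0.14. The reads of Rpgrip1 could not be told apart from those of Supt16 under any scaling.

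**Figure D4:**
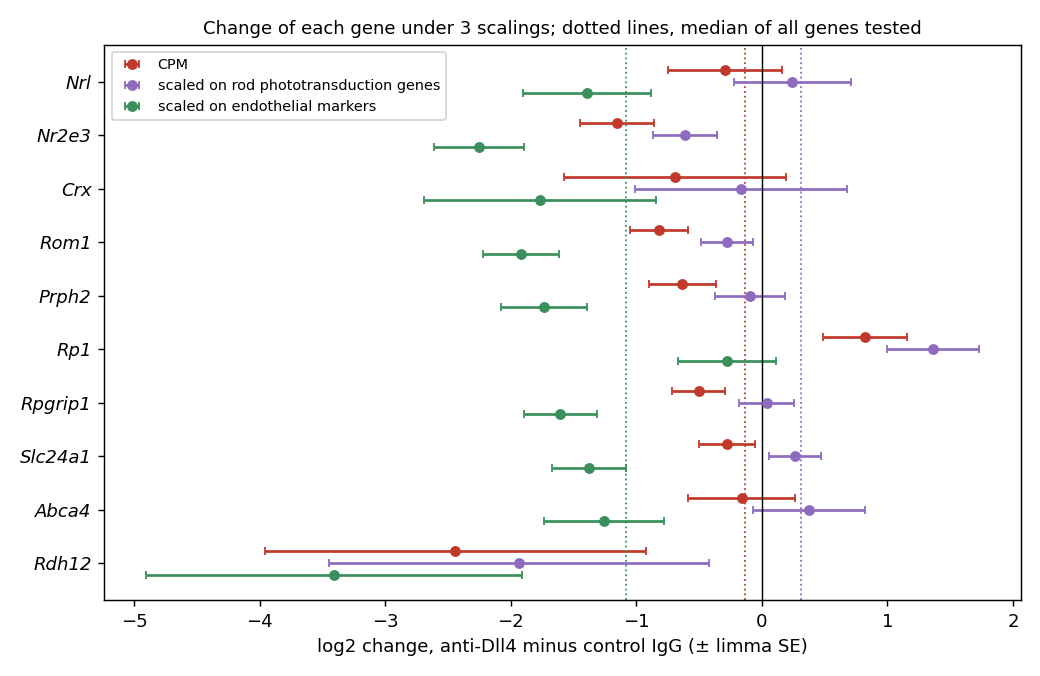
Log2 change of each gene, anti-Dll4 minus control IgG, with its limma SE, from CPM (red), after scaling on 20 rod phototransduction genes (purple) and after scaling on 20 endothelial markers (green); dotted lines give the median of all genes tested under each scaling. Under all 3 scalings Rp1 lies above the dotted line of its colour, and every other gene except Abca4 lies below it. Abca4 lies above it with rod scaling only.

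The libraries differed among themselves. Anti-Dll4 3 gave the lowest value of its group for 6 of the 10 genes and anti-Dll4 4 for 3. Anti-Dll4 3 was below every control library for 9 of 10 genes, anti-Dll4 4 for 8, anti-Dll4 1 for 5 and anti-Dll4 2 for 4. The same counts were not made over all genes, so nothing particular to the 10 genes can be read from them. The median of the 10 genes relative to their control means was -0.15, -0.04, -0.83 and -0.67 log2 units in anti-Dll4 libraries 1 to 4. Without anti-Dll4 3 the median change of the 10 was -0.28.

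Other photoreceptor genes were read from lists, beside 54.5% of all genes tested with negative changes and a median of -0.14. Of 11 other photoreceptor regulators tested, 7 had negative changes (median -0.45), and of 10 other outer segment structure genes 8 (median -0.44). Of 13 ciliary gate and transport genes 8 were negative (median -0.49), and of 7 other retinoid cycle genes 3 (median 0.07). The summed ciliary level averaged 0.203% of CPM in anti-Dll4 and 0.188% in control IgG libraries. The summed retinoid level averaged 0.0407% and 0.0513%, and the groups overlapped for both sums. Of 20 rod phototransduction genes 16 were negative (median -0.57), and of 11 cone phototransduction genes 9 (median -0.41). In each of these lists 0 genes were called by limma in either direction, against 0.119% of all genes. At an unadjusted p under 0.05, 6 rod genes (Gngt1 and Pde6a among them) and 1 cone gene (Opn1sw) were lower, against 3.41% of all genes tested, and 1 outer segment gene (Impg2) was higher, against 3.68%. Voom called 2 of the rod genes lower (Gngt1 among them) and 0 genes of the other lists.

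**Figure D5:**
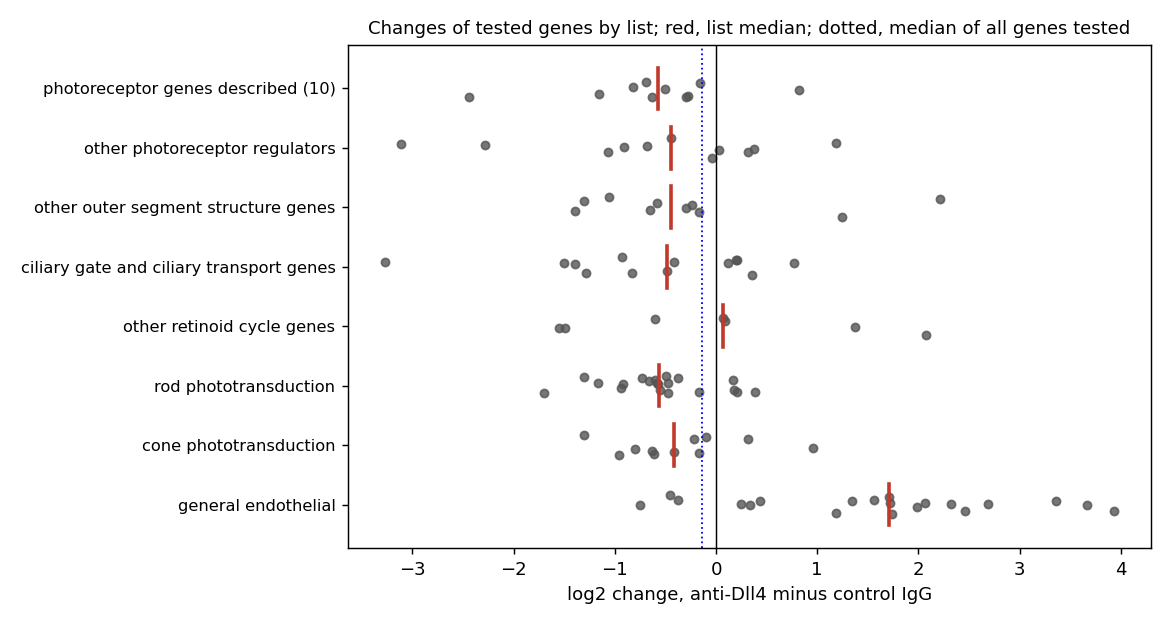
Log2 change, anti-Dll4 minus control IgG, of each tested gene (points, spread up and down at random) in the 10 photoreceptor genes, 6 related lists and the endothelial markers; the red bar is the list's median and the dotted line the median of all genes tested. The medians of the 10 genes (-0.57) and of rod phototransduction (-0.57) lie close together, and that of the endothelial markers lies at 1.71.

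The members of these lists with the highest mean CPM give the sizes. Among regulators, Mef2d, a cofactor of Crx at photoreceptor enhancers, averaged 823 ± 444 CPM in anti-Dll4 and 1158 ± 288 CPM in control IgG libraries (log2 change -0.68 ± 0.40), Otx2, which activates Crx in development, 675 ± 118 and 666 ± 155 CPM (0.03 ± 0.32), and Casz1, a zinc finger factor, 912 ± 390 and 901 ± 261 CPM (-0.04 ± 0.34). The outer segment genes Prom1, needed for disc formation, and Tulp1, a transport protein, had log2 changes of -0.17 ± 0.33 and -0.23 ± 0.33. Gngt1, the gamma subunit of rod transducin, was at 2474 ± 752 CPM in anti-Dll4 and 3952 ± 44.9 CPM in control IgG libraries (-0.73 ± 0.23; limma adjusted p = 0.393, voom adjusted p = 0.0193, range over 18 alternatives 0.00566 to 0.879). Pde6a, the catalytic alpha subunit of the rod phosphodiesterase, and Pdc, phosducin, had log2 changes of -0.56 ± 0.23 and -0.48 ± 0.27.

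Unc119 and Arl3 act in the transport of lipid-modified proteins to the outer segment, and Cep290 belongs to the transition zone. Their log2 changes were 0.11 ± 0.25, 0.20 ± 0.43 and -0.93 ± 1.86, in that order. Rbp3, the retinoid-binding protein of the interphotoreceptor space, Rlbp1, the retinaldehyde-binding protein of Müller glia, and Rdh10 had changes of -0.60 ± 0.59, -1.55 ± 0.92 and 0.09 ± 1.47. The cone genes Arr3 (cone arrestin), Gnb3 and Opn1sw (the short-wavelength opsin) had changes of -0.22 ± 0.48, 0.96 ± 0.51 and -1.31 ± 0.59. None of these 17 genes passed in limma on CPM (adjusted p from 0.393 to 0.992). Of them, Gngt1 passed in voom, and Gngt1, Pde6a and Pdc passed in limma when libraries were scaled on endothelial markers (log2 changes -1.83, -1.66 and -1.58, or -0.75, -0.57 and -0.49 relative to the median gene there; adjusted p = 0.00566, 0.00601 and 0.0185). With a library left out, the change of Mef2d ran from -0.97 to -0.22 (without anti-Dll4 3), that of Rbp3 from -0.92 to -0.06 (without anti-Dll4 4; -0.17 without control IgG 3), that of Pdc from -0.71 (without control IgG 1) to -0.29 (without anti-Dll4 3), that of Prom1 from -0.39 (without anti-Dll4 3) to -0.0272 (without anti-Dll4 4), that of Tulp1 from -0.39 (without control IgG 4) to -0.11 (without control IgG 1) and that of Unc119 from 0.0487 (without anti-Dll4 1) to 0.23 (without anti-Dll4 4).

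Over the 7 libraries, the pattern of each gene was set against the mean pattern of the other 9, as a description, since all points share libraries and depth. Pearson's r was 0.91 for Nrl, 0.83 for Rpgrip1 and for Prph2, 0.76 for Rom1, 0.73 for Slc24a1, 0.69 for Nr2e3, 0.60 for Abca4, 0.58 for Crx and 0.48 for Rdh12, and it was -0.57 for Rp1. Among 2311 other genes with a mean of at least 100 CPM, those most like the mean pattern of the 10 were Srpk2 (r = 0.995), Kmt2e (0.995), Lmnb1 (0.984), Mettl5 (0.980) and Pfkfb2 (0.979), and 65 genes had r above 0.9. Srpk2 and Kmt2e overlap on opposite strands and had equal reads in 6 of 7 libraries, so they count as 1 pattern.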

How the data were processed

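Ribosome-bound RNA was sequenced with a kit that reads transcript 3′ ends; cutadapt, TopHat2 and bedtools, and the human build hg19, are named in the submitters' processing notes (the symbols are those of mouse genes), while the annotation, the counting rule and the use of strand are not stated in any source used. The authors deposited log10(CPM + 1) values, relative to the reads of the listed genes, as the values show: turned back, they sum to 1000000 CPM per library, and 100% are whole multiples of 1 read (tolerance 1e-06), so whole reads were recovered. Of the 7 columns, 6 match sample titles; control IgG 1 matches a control by name only and entered without a number of its own. The test ran on log2(CPM + 1) (converted from log10), over the 10899 genes that reached 1 CPM in 3 or more libraries, with limma 3.58.1 in R 4.3.3 (antibody as the only term, mean-variance trend, two-sided, Benjamini-Hochberg over all genes tested), and voom with trimmed-mean scaling was run on the whole reads as 1 of 18 alternatives; the others changed the pseudocount, the filter, the trend, the library weights or the scaling, left out a library, or added a block. The pipeline was also run on simulated data in which the spread between libraries was capped. That run does not show how often changes are found at the spread of these libraries. Changes are anti-Dll4 minus control IgG, and SEs are limma's. CPM are not divided by length. Genes were ranked by mean CPM to choose which to name, and no difference in level between genes was tested. The protocol names no molecular identifiers, so Poisson intervals and floors cover counting error only.

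The 10 genes and all lists were chosen with earlier results of these data known. Named list genes are those past the threshold in a list or, failing that, the 3 with the highest mean CPM, of which 1 is not reported here; similar genes are the 5 with the highest r among genes with a mean of at least 100 CPM. Supt16, Impg2, Slc6a9 and genes named for an unadjusted p were chosen after their values were seen. Symbols were matched to RefSeq promoter windows (GRCm38.p6) and, for overlaps between genes, to GENCODE M21; coordinates are those of the windows only.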

Additional observations from a re-analysis of the deposited data

Results flagged for a closer look

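Crx in anti-Dll4 libraries stood out because 1 sample lay far from the others: the gap between anti-Dll4 3 (8.50 CPM, 15 reads) and the next library (139 CPM) was 0.899 of the group's whole range in log2(CPM + 1), above Dixon's 95% critical value for 4 samples. Of 39 groups of 4 values examined in this way, 1 was flagged, and chance flags about 1 in 20. Anti-Dll4 3 was also the lowest of its group for 6 of the 10 genes and had the highest summed endothelial marker level, 0.552% of CPM; the part of either in the Crx value was not tested.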

How the results depend on the processing

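Of 180 recomputed changes of the 10 genes (18 alternatives each), 166 kept their direction and their side of the threshold, 7 came to pass it (named with voom and endothelial scaling in the report) and 7 reversed. The number of genes called higher over the whole table (13) was 0 without the mean-variance trend, 23 with array weights, 54 with rod scaling, 2 with endothelial scaling and 3 to 22 with a library left out (3 without control IgG 1 or anti-Dll4 4, 6 without anti-Dll4 1 or 2, 22 without control IgG 3); the number called lower (0) was 25 with voom and 164 with endothelial scaling. The 10 genes had 0 called lower in limma, 2 with voom and 5 with endothelial scaling. Their median (-0.57) was -0.0278 with rod scaling, -1.67 with endothelial scaling and -0.69 to -0.28 with a library left out. Leaving Rpgrip1 out, an alternative chosen after seeing the data, gave -0.64.

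Rod scaling reversed Nrl (0.24), Rpgrip1 (0.0383), Slc24a1 (0.26), Abca4 (0.38), Casz1 (0.50), Prom1 (0.38), Tulp1 (0.31), Pdc (0.0631), Arr3 (0.32) and Supt16 (0.0127). Endothelial scaling reversed Rp1 (-0.28), Otx2 (-1.07), Unc119 (-0.99), Arl3 (-0.90), Rdh10 (-0.91) and Gnb3 (-0.14). Array weights reversed Otx2 (-0.0101) and median-of-ratios scaling Casz1 (0.0077). With a library left out, changes that crossed 0 ran from -1.21 to 0.35 for Crx, -0.31 to 0.0077 for Abca4, -0.29 to 0.21 for Casz1, -2.69 to 0.32 for Cep290, -0.79 to 1.10 for Rdh10, -0.16 to 0.18 for Otx2, -0.0562 to 0.46 for Arl3 and -0.53 to 0.16 for Arr3. Except where scaling shifts all genes or fewer libraries enter by construction, the cause was not tested.

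Titles of both groups share numbers 3 and 4 only, and the deviations of same-numbered libraries correlated at 0.05 and 0.07, so nothing shows that numbers pair samples. A replicate block on title numbers gave 1 gene called higher and 2 lower over the whole table, 0 of the 10 genes, a median of -0.74 for them, and reversed Casz1 (0.13), Prom1 (0.0833), Arl3 (-0.0306) and Rdh10 (-0.36). Anti-Dll4 1, anti-Dll4 2 and control IgG 1 each formed a block alone. The changes with this block therefore rest on libraries 3 and 4 of each group only. Low read numbers limit Rdh12, with 1 to 15 reads in 3 anti-Dll4 libraries (384 in anti-Dll4 2), and Crx in anti-Dll4 3. They also limit Cep290, with 61, 0, 339 and 5 reads in anti-Dll4 and 2, 132 and 113 in control IgG libraries. The same holds for Rdh10, with 3 reads in anti-Dll4 4 and 8 in control IgG 4. Total depth was 1356192 to 1771086 reads per library, and the cause of the low numbers was not tested.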

Other observations

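Beyond the genes above, Impg2, a proteoglycan of the matrix around outer segments, had a change in the direction of Rp1, at 123, 224, 213 and 524 CPM in anti-Dll4 and 148, 117 and 55.4 CPM in control IgG libraries (1.25 ± 0.58, limma adjusted p = 0.695), with overlapping groups.

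Among markers of other retinal cells, 9 of 12 bipolar (median -0.59), 7 of 9 amacrine (-0.88) and 6 of 8 ganglion (-1.49) had negative changes. Of Müller glia markers 4 of 10 did (0.15), against 54.5% of all genes tested (median -0.14). Limma and voom called 0 of these lower, against 0.0% and 0.229% of all genes, and 0 higher, against 0.119% and 0.147%. At an unadjusted limma p under 0.05, 1 was lower (Slc6a9, amacrine), against 3.41%. Their summed levels averaged 0.159%, 0.0468%, 0.0284% and 0.220% of CPM in anti-Dll4 libraries, in that order. Control IgG libraries averaged 0.183%, 0.0554%, 0.0269% and 0.226%, and the groups overlapped for each. Summed red blood cell markers ran from 0.0662% to 3.61% of CPM in anti-Dll4 and from 0.143% to 1.87% in control IgG libraries.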
